A study of Homo sapiens with 12 samples.

Results

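The endoplasmic reticulum (ER) chaperone HSPA5, 6 proteins that help it or work on its cycle (HYOU1, DNAJB11, DNAJB9, DNAJC3, SDF2L1 and MANF) and 3 further ER folding proteins (HSP90B1, CRELD2 and CALR) were followed through 12 RNA-seq libraries of HepG2 cells. These 10 genes were taken by symbol from a list, and all 10 were present among the 16389 genes of the count table. The list was selected on the measured fall of these genes in HG against LG, so that comparison is given here as a description, without a test. All libraries came from HepG2, a human liver cancer line long kept in culture. The 4 groups, with 3 libraries each, were LG (5.5 mM glucose for 48 h), HG (20 mM glucose for 48 h), LGV and HGV (the LG and HG conditions followed by 1 mM valproic acid for 12 h). Valproic acid (VPA) inhibits histone deacetylases. The sources used here do not say whether untreated cells were collected before or after those 12 h, so VPA and the added culture time cannot be told apart. They also do not say whether replicates were separate cultures, so p-values measure the spread between these libraries, which may be technical.

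Secreted and membrane proteins fold in the ER, where HSPA5 (also named BiP or GRP78) holds unfolded chains and releases them as it splits and exchanges ATP. J-domain proteins hand clients to HSPA5 and stimulate its ATPase, and nucleotide exchange factors reset it. When unfolded chains accumulate, the sensors ATF6, IRE1 and PERK start the unfolded protein response, in which ATF6 and XBP1 raise transcription of these chaperones. HSPA5 is also known as a glucose-regulated protein, named for its induction when cells are starved of glucose, and hepatocytes carry a large secretory load.

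The promoters are shown first because ATF6 and XBP1 are known to act through a few short elements. The ER stress response element (ERSE) was searched as CCAAT and CCACG with 9 bases of any kind between them, its second form (ERSE-II) as ATTGG and CCACG with 1 base of any kind between them, the unfolded protein response element (UPRE) as TGACGTGG and the NF-Y box as CCAAT, on both strands, in windows from 250 bases before to 50 bases after each RefSeq gene start (GRCh38.p14). All 10 genes had a promoter in the table. ERSE occurred in 4 of the 10 (HSPA5, HSP90B1, CRELD2 and CALR) and in 0.0806% of all 27305 promoters. ERSE-II occurred in 2 of the 10 (HYOU1 and SDF2L1) and in 0.0549% of all promoters, and either form in 6 of the 10 and in 0.136% of all. Among the 10327 promoters of genes in the count table, the shares were 0.126% for ERSE, 0.107% for ERSE-II and 0.232% for either form. The elements were searched because they are known to serve such chaperones, so these shares are no test of enrichment. The UPRE letters were in 1 of the 10, HYOU1 (0.795% of all promoters), and the NF-Y box was in 10 of 10 (35.7% of all). Each ERSE or ERSE-II match also contains an NF-Y box, and in HYOU1 the UPRE shares bases with the first ERSE-II. The windows of DNAJB11, DNAJB9, DNAJC3 and MANF held NF-Y boxes without the longer spellings, which says only that these letters were not found there. The 6 stretches that hold ERSE or ERSE-II are printed with 10 bases on each side, on the strand of the gene. Capitals mark the outer letters of each match. These are CCAAT and CCACG for ERSE read along the gene, CGTGG and ATTGG for ERSE on the other strand, and CGTGG and CCAAT for the ERSE-II matches of HYOU1 and SDF2L1, which are all on the other strand.
HSPA5, chr9:125241381-125241419, minus strand: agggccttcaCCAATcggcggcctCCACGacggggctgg
HSP90B1, chr12:103930206-103930349, plus strand: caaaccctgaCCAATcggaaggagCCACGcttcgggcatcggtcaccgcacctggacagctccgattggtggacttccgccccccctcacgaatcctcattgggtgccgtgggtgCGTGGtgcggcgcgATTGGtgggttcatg
HYOU1, chr11:119057264-119057400, minus strand: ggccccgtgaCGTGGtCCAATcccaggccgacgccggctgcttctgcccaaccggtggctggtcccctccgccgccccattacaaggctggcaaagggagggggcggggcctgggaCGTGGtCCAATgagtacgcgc
SDF2L1, chr22:21642104-21642134, plus strand: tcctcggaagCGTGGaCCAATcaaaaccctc
CRELD2, chr22:49918544-49918582, plus strand: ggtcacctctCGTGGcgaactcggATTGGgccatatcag
CALR, chr19:12938374-12938412, plus strand: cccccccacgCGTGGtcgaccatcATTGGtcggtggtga

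HSPA5 held its ERSE at bases -66 to -48 from the gene start, in the reading direction of the gene. HSP90B1 held a pair, at -194 to -176 in the gene's direction and at -89 to -71 on the other strand. HYOU1 likewise held a pair of ERSE-II matches, at -185 to -175 and at -79 to -69. A match is a description of letters and was not tested as a binding site in these cells.

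**Figure D1:**
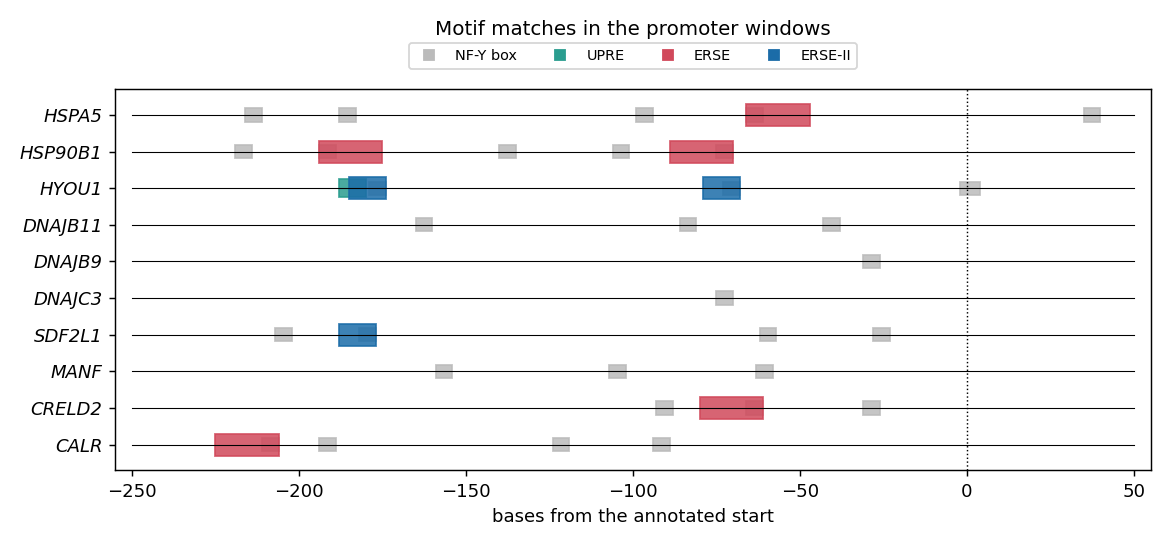
Motif matches in the promoter windows of the 10 genes, by bases from the annotated gene start (dotted line). Coloured blocks are ERSE (red), ERSE-II (blue), UPRE (green) and NF-Y box (grey) matches on either strand; ERSE or ERSE-II blocks stand in 6 of the 10 windows, and HSP90B1 and HYOU1 each hold a pair.

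Total counts ran from 29798442 to 45572694 per library, and none of the 10 genes had fewer than 303 reads in any library (SDF2L1 in an HG library). The glucose labels were checked on TXNIP, a glucose-induced gene, which stood at 6.37 CPM in LG and 258 CPM in HG, and at 9.78 CPM in LGV and 350 CPM in HGV (means). CPM are counts per 1e6 reads, scaled with TMM factors. The histone gene H1F0, taken as a check of deacetylase inhibition, did not pass the test for VPA (log2 fold change -0.11, FDR 0.536, in LGV against LG and 0.23, FDR 0.114, in HGV against HG). All 13 hepatocyte markers were above 1 CPM in every group, with summed levels of 56218 to 63859 CPM in LG, 59449 to 67937 in HG, 41906 to 42947 in LGV and 51041 to 64818 in HGV. Of other cell types, 2 of 7 fibroblast, 2 of 6 blood and 2 of 4 endothelial markers were in the table. Their sums reached at most 58.3, 6.41 and 4.85 CPM, and their part in the results was not tested. The LG replicate 3 library had the lowest LG value for 9 of the 10 genes, and LGV replicate 1 the lowest LGV value for 9 of the 10. Results that rest on LG are therefore also given without LG replicate 3 where that changed a call.

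The 10 genes together took 1.25 to 1.63% of all reads in LG and 0.378 to 0.440% in HG. With VPA they took 1.55 to 1.77% in LGV and 0.416 to 0.461% in HGV. The high-glucose libraries lay below all low-glucose libraries with or without VPA. In bulk RNA, fewer cells of a type and less RNA per cell cannot be told apart.

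HSPA5 (ENSG00000044574, GRCh37 chromosome 9, 127997132 to 128003661, minus strand) is the central chaperone of the group, and gene positions from here on are on GRCh37. It stood at 5862, 5517 and 4247 CPM in the LG libraries, at 1303, 1138 and 1243 in HG, at 4523, 5456 and 6003 in LGV and at 1221, 1106 and 950 CPM in HGV. Every 20 mM library was below every 5.5 mM library, while libraries with and without VPA overlapped at either glucose level. The mean was 4.18-fold lower in HG than in LG on the fitted scale.

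HYOU1 (ENSG00000149428, chromosome 11, 118914899 to 118927938, minus strand) is a large HSP70-like exchange factor of HSPA5. Its LG libraries held 2636, 2395 and 1471 CPM, and those of HG 434, 425 and 445 CPM. With VPA it held 1442, 1981 and 1880 CPM in LGV and 438, 403 and 330 CPM in HGV. LG replicate 3 was far below the other LG libraries, but still above all of HG, and HYOU1 had the widest relative spread of the 10 genes in LG (28.4% of the mean) and the narrowest in HG (2.31%).

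The J-domain proteins DNAJB11, DNAJB9 and DNAJC3 lie in the ER lumen. DNAJB11 (ENSG00000090520, chromosome 3, 186285192 to 186303589, plus strand), which binds unfolded clients itself and passes them to HSPA5, had 416, 419 and 283 CPM in LG, 88.3, 76.8 and 85.5 in HG, 488, 599 and 617 in LGV and 160, 136 and 142 in HGV. Its VPA libraries were above the untreated ones at both glucose levels without overlap. DNAJB9 (ENSG00000128590, chromosome 7, 108210311 to 108215294, plus strand), known to bring HSPA5 to the sensor IRE1 and to misfolded clients, had 124, 124 and 95.6 CPM in LG, 39.0, 24.8 and 34.4 in HG, 98.2, 89.6 and 95.01 in LGV and 27.2, 28.0 and 25.6 in HGV. DNAJC3 (ENSG00000102580, chromosome 13, 96329393 to 96447242, plus strand), known as P58IPK, an inhibitor of PERK and a co-chaperone, had 256, 320 and 212 CPM in LG, 87.0, 69.4 and 73.5 in HG, 257, 326 and 326 in LGV and 80.6, 62.5 and 68.4 in HGV. For both of these the VPA libraries overlapped the untreated ones.

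SDF2L1 (ENSG00000128228, chromosome 22, 21996591 to 21998588, plus strand) forms a complex with ER J-domain proteins, DNAJB11 among them. Its libraries read 113, 72.7 and 79.2 CPM in LG, 9.61, 13.01 and 13.4 in HG, 72.7, 73.2 and 75.4 in LGV and 20.3, 22.1 and 21.8 in HGV. It was the gene with the lowest HG mean of the 10 in CPM, and all 3 HGV libraries were above all 3 HG libraries. MANF (ENSG00000145050, chromosome 3, 51422722 to 51426828, plus strand), a secreted ER protein that binds HSPA5 and slows its nucleotide exchange, had 355, 325 and 246 CPM in LG, 41.0, 42.8 and 49.7 in HG, 298, 330 and 311 in LGV and 51.8, 55.4 and 46.1 in HGV. For MANF the glucose levels were far apart and the VPA libraries overlapped the untreated ones.

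HSP90B1, CALR and CRELD2 complete the group. HSP90B1 (ENSG00000166598, chromosome 12, 104323885 to 104347709, plus strand), the ER form of HSP90 known as GRP94, had 4419, 4869 and 3742 CPM in LG, 1731, 1241 and 1394 in HG, 4244, 5051 and 4621 in LGV and 1384, 1199 and 1445 in HGV. CALR (ENSG00000179218, chromosome 19, 13049392 to 13055303, plus strand), a calcium-binding lectin chaperone of glycoproteins, had 3895, 3927 and 2512 CPM in LG, 684, 708 and 746 in HG, 2697, 3887 and 3354 in LGV and 814, 938 and 776 in HGV. CRELD2 (ENSG00000184164, chromosome 22, 50311815 to 50321188, plus strand), an ER-stress-induced protein with disulfide isomerase-like motifs, had 127, 88.8 and 78.1 CPM in LG, 19.0, 20.7 and 21.5 in HG, 72.6, 73.9 and 78.0 in LGV and 19.4, 23.4 and 17.3 in HGV. All 3 genes were lower in every 20 mM library than in every 5.5 mM library. HGV was above HG without overlap for CALR, and LGV was below LG without overlap for CRELD2.

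**Figure D2:**
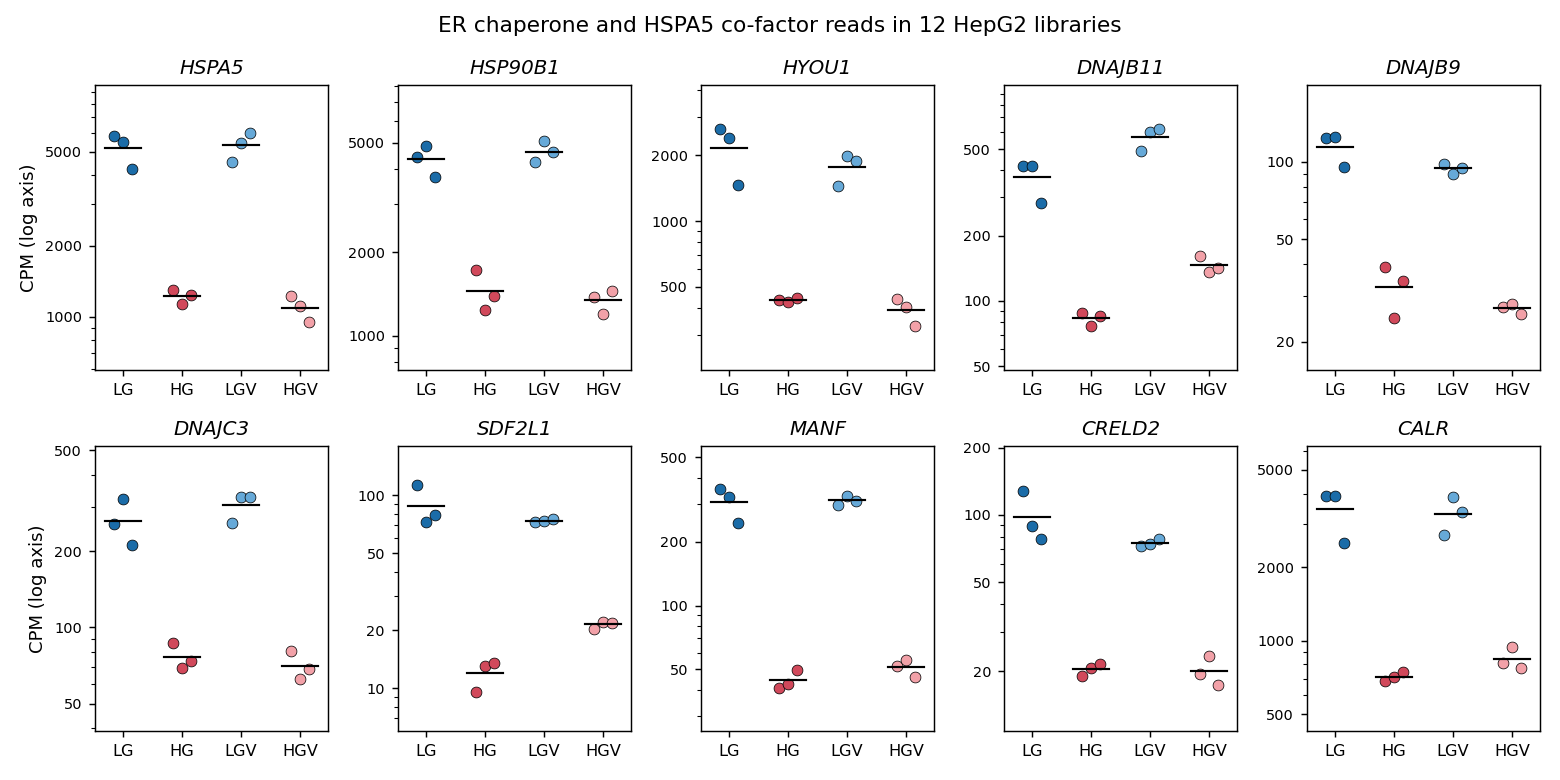
CPM (log axis) of each of the 10 genes in the 12 HepG2 libraries, as points by group, with a bar at the mean of the 3 libraries. In all 10 panels the HG and HGV points lie below the LG and LGV points. Over all genes, 21.8% were lower without overlap in HG against LG and 23.7% in HGV against LGV. In DNAJB11, SDF2L1 and CALR all HGV points lie above all HG points, where 54.6% of all genes did not overlap in either direction.

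Across the 10 genes the HG libraries lay below the LG libraries in 10 of 10, beside 21.8% of all 15452 genes tested that were lower without overlap and 12.7% called lower at a false discovery rate (FDR) of 0.05 or less. The log2 fold changes ran from -1.56 for HSP90B1 to -2.85 for SDF2L1, with a median of -2.19, beside 0.01 over all genes. MANF fell 6.83-fold and SDF2L1 7.19-fold on the fitted scale, and HSP90B1 2.95-fold. The choice of genes fixed this direction, and it is no test of it.

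The glucose comparison under VPA used the LGV and HGV libraries, which are not part of the contrast that chose the genes. They repeat the same glucose levels with VPA added, and earlier results of these data were known. It is therefore not an independent test of the choice. All 10 genes were lower in HGV than in LGV by edgeR's quasi-likelihood test with Benjamini-Hochberg adjustment over 16208 genes, with FDR from 3.26e-10 to 2.45e-07. Over all genes, 19.5% were called lower, and 23.7% were lower without overlap, as were 10 of the 10. MANF fell most, with a log2 fold change of -2.63 (SE 0.13, 51.1 ± 4.71 CPM in HGV and 313 ± 16.2 CPM in LGV, SD, n = 3 each), a 6.21-fold lower level, and ranked 2 by p-value. HSPA5 changed by -2.30 (SE 0.17), HYOU1 by -2.20 (SE 0.16) and DNAJC3 by -2.12 (SE 0.14). CALR changed by -1.99 (SE 0.17), DNAJB11 by -1.98 (SE 0.14) and CRELD2 by -1.92 (SE 0.13). The least changed were DNAJB9 with -1.83 (SE 0.12), HSP90B1 with -1.81 (SE 0.16) and SDF2L1 with -1.80 (SE 0.12), each still about 3.5-fold lower. All 10 stood within the 98 lowest log2 fold changes and within the 42 smallest p-values. Their median of -1.99 stood beside 0.01 over all genes.

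VPA left most of the group without a call, while DNAJB11 was called higher at both glucose levels. In LGV against LG, 1 of the 10 was called higher, 0 were called lower and 9 were not called, where 21.7% of all 15944 genes were called higher and 41.6% in either direction. DNAJB11 rose by 0.62 on the log2 scale (SE 0.16, 95% interval 0.29 to 0.96, edgeR FDR 0.00539), from 373 ± 78.2 to 568 ± 69.8 CPM (SD, n = 3 each). In HGV against HG, 2 of the 10 were called higher, 0 lower and 8 were not called, where 25.8% of all 16188 genes were called higher and 46.1% in either direction. DNAJB11 rose by 0.81 (SE 0.11, edgeR FDR 5.52e-05), from 83.5 ± 5.97 to 146 ± 12.8 CPM, and SDF2L1 by 0.83 (SE 0.14, edgeR FDR 0.000433), from 12.0 ± 2.10 to 21.4 ± 1.00 CPM. Libraries did not overlap for 2 of the 10 in LGV against LG (50.5% of all genes) and for 3 of the 10 in HGV against HG (54.6% of all genes). Whether these shares differ from those of all genes was not tested, and without LG replicate 2 or without LG replicate 3 the count in LGV against LG was 4 of the 10. Both comparisons share the LG or HG libraries with the contrast that chose the genes. The summed hepatocyte markers were lower in every LGV library than in every LG library, by the ranges given above, and their part in the VPA values was not tested.

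The genes without a call under VPA had intervals that still allowed modest change. For HSPA5 the 95% interval of the log2 fold change was -0.30 to 0.39 in LGV against LG and -0.43 to 0.09 in HGV against HG. For HSP90B1 it was -0.21 to 0.42 and -0.42 to 0.18, and for MANF -0.26 to 0.33 and -0.05 to 0.45. HYOU1 changed by -0.28 in LGV against LG (edgeR FDR 0.270), and without LG replicate 3 by -0.48 (edgeR FDR 0.0151). CRELD2 changed by -0.38 (edgeR FDR 0.0634) and without LG replicate 3 by -0.50 (edgeR FDR 0.00813), and DNAJB9 by -0.27 (edgeR FDR 0.101) and without it by -0.37 (edgeR FDR 0.0237). DNAJB11 rose by 0.47 without LG replicate 3 (edgeR FDR 0.0105). In HGV against HG, CALR was higher in all 3 HGV libraries, with a log2 fold change of 0.24 that missed the threshold (edgeR FDR 0.0900). DNAJB9 changed by -0.28 (edgeR FDR 0.149), and without HG replicate 2 by -0.45 (edgeR FDR 0.0156).

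**Figure D3:**
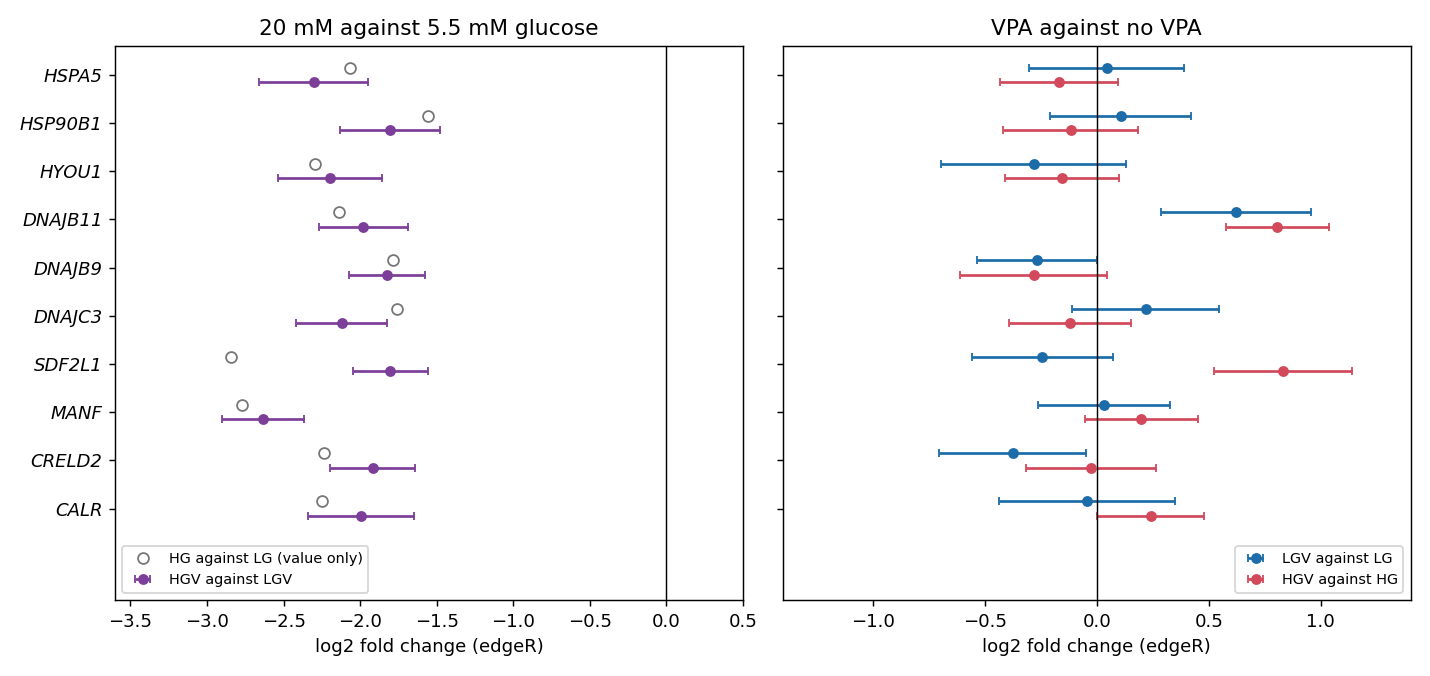
Log2 fold changes of the 10 genes, for 20 mM against 5.5 mM glucose (left) and VPA against no VPA (right), from edgeR. Filled points carry 95% intervals and open points (HG against LG, the contrast that chose the genes) are values only; all points at left lie below -1.5, and DNAJB11 lies above 0 in both VPA comparisons.

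The interaction of glucose and VPA asks whether the glucose change differed with VPA, and it uses the HG and LG libraries that chose the genes. By edgeR's quasi-likelihood test 0 of the 10 passed, and 0.0427% of all 16389 genes did (7 genes). Of the 10, 1 had an unadjusted p under 0.05, SDF2L1, with a log2 interaction of 1.09 (SE 0.21, 95% interval 0.64 to 1.53, edgeR FDR 0.0627). Its glucose change was -2.85 without VPA and -1.80 with VPA. The FDR was 0.00377 by the DESeq2 Wald test and 0.00179 by edgeR's likelihood ratio test. It was 0.0129 in edgeR without LG replicate 2 and 0.0250 without LG replicate 3, and ran up to 0.186 over the settings tried. The other 9 genes had interaction values from -0.33 for DNAJC3 to 0.36 for CRELD2, with edgeR FDR of 0.554 or higher for each of them. Their 95% intervals still allowed differences, with -0.76 to 0.11 for DNAJC3 and -0.09 to 0.81 for CRELD2. A missing call does not show that the glucose change was the same with VPA.

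Expressed per 1000 HSPA5 reads of the same library, DNAJB11 read 71.0, 76.0 and 66.5 in LG and 67.7, 67.5 and 68.8 in HG. With VPA it read 108, 110 and 103 in LGV and 131, 123 and 150 in HGV. Without VPA the DNAJB11 ratio overlapped between glucose levels, and with VPA it was 1.26 times higher in HGV than in LGV, without overlap. The VPA libraries were higher than the untreated ones without overlap, 1.501 times in LGV and 1.98 times in HGV. In HGV against HG the ratios of SDF2L1, MANF and CALR were also higher without overlap (2.01, 1.29 and 1.33 times). In LGV against LG each of these overlapped. SDF2L1 read 19.2, 13.2 and 18.6 in LG, 7.37, 11.4 and 10.8 in HG, 16.1, 13.4 and 12.6 in LGV and 16.6, 20.0 and 23.0 in HGV. Its ratio was lowest in HG, where no library reached the LG range, and HGV was above LGV. MANF read 59.2 ± 1.30 in LG and 36.3 ± 4.40 in HG, and 59.4 ± 7.09 in LGV and 47.0 ± 4.06 in HGV (SD, n = 3 each). HSP90B1 moved the other way, with 839 ± 73.9 in LG and 1180 ± 129 in HG, and with 878 ± 93.8 in LGV and 1246 ± 240 in HGV. Its libraries did not overlap between glucose levels in either pair, so HSP90B1 fell less than HSPA5 in both. These ratios are a description and were not tested.

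**Figure D4:**
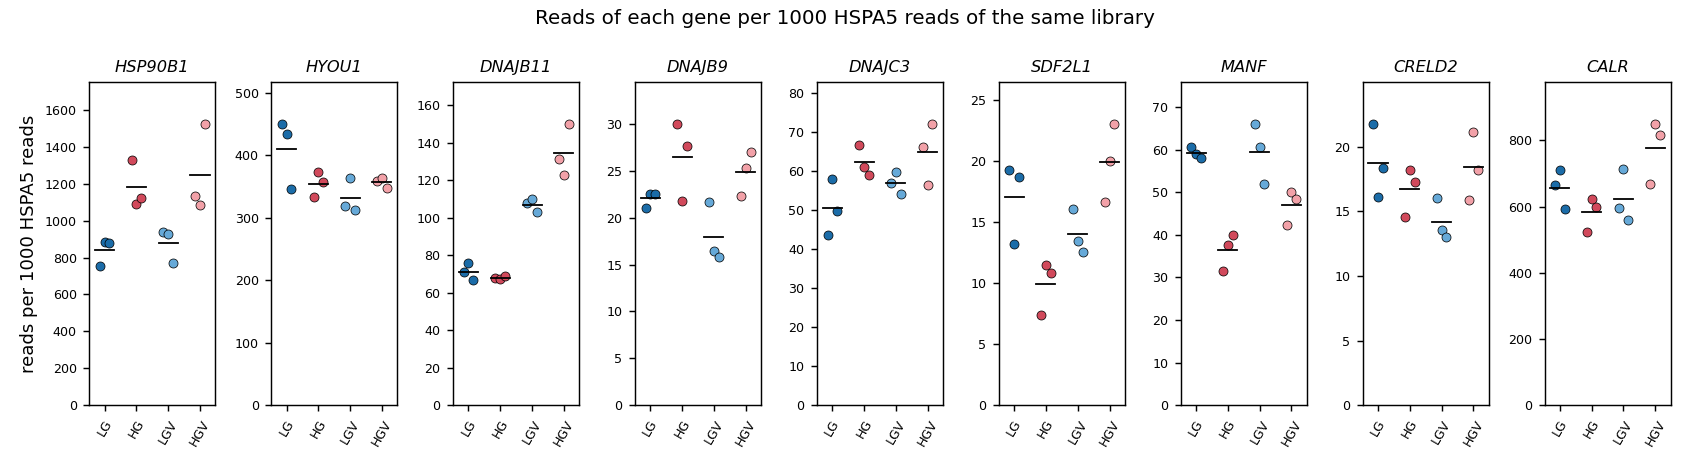
Reads of 9 genes per 1000 HSPA5 reads of the same library, as points by group with a bar at the mean of 3 libraries; each panel has its own linear axis from 0. DNAJB11 is higher with VPA (LGV and HGV) than without, and HSP90B1 is higher in HG and HGV than in LG and LGV.

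The 10 genes were also ordered by CPM per kilobase of the canonical transcript. Reads were counted per gene. All annotated exons spanned 13092 bases for HSP90B1, beside 2782 in that transcript, and 5590 in both for DNAJC3. The order may depend on the length used, which was not tested. In LG it began with CALR (1812 ± 425, SD, n = 3), HSP90B1 (1561 ± 204) and HSPA5 (1328 ± 217), whose ranges overlapped from each to the next. HYOU1 (471 ± 134) and MANF (340 ± 61.8) followed, overlapping each other, and then DNAJB11 (227 ± 47.7). At the low end were SDF2L1 (107 ± 25.9), CRELD2 (68.7 ± 18.2), DNAJB9 (47.5 ± 6.81) and DNAJC3 (47.0 ± 9.75). SDF2L1 overlapped CRELD2, and DNAJB9 overlapped DNAJC3. In HG the order began with HSP90B1 (523 ± 90.1), CALR (375 ± 16.5) and HSPA5 (313 ± 21.4), without overlap, and the last 4 lay between 13.6 and 14.6, each overlapping the next. With VPA, DNAJB11 stood at 347 ± 42.5 in LGV, overlapping both HYOU1 and MANF, and at 89.1 ± 7.83 in HGV, overlapping HYOU1.

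Overlapping genes and copies touch these counts, because the counting's use of strand is not given in the sources used here, although the library kit keeps strand. DNAJB11 exons share 381 bases with TBCCD1 on the other strand. TBCCD1 stood at 9.74 CPM in LG, 8.50 in HG, 26.1 in LGV and 19.3 in HGV (means), so it was also higher with VPA. The difference between LGV and LG was 196 CPM for DNAJB11 and 16.3 CPM for TBCCD1, and that between HGV and HG was 62.6 and 10.8 CPM. CRELD2 shares 168 exon bases with ALG12 and HSP90B1 shares 805 with UQCC6 (named C12orf73 in the count table), both on the other strand. The group means of ALG12 and C12orf73 lay between 9.82 and 20.3 CPM. The HSP90B1 pseudogene HSP90B2P had means of 0.54 to 1.77 CPM, so reads shared between the copies remain uncertain.

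Close relatives outside the group had smaller log2 fold changes in HGV against LGV than the 10 genes. HSPA13, an HSP70-like protein of microsomes, fell by 0.75 on the log2 scale (SE 0.11, edgeR FDR 7.17e-05), CRELD1 by 0.61 (SE 0.11, edgeR FDR 0.000412) and CANX, the membrane-bound partner of CALR in the lectin cycle, by 1.39 (SE 0.14, edgeR FDR 1.42e-06). SDF2, the paralog of SDF2L1, changed by -0.19 (edgeR FDR 0.224), and CDNF, the paralog of MANF, was near 0.6 CPM and gave 0.03 (edgeR FDR 0.957). In the cytosol, HSPA8 fell by 0.43 (edgeR FDR 0.0431) and the exchange factor HSPH1 by 1.34 (edgeR FDR 1.42e-06), while HSP90AA1 (-0.31, edgeR FDR 0.0871) and HSP90AB1 (-0.18, edgeR FDR 0.379) did not pass. In mitochondria, HSPA9 fell by 0.39 (edgeR FDR 0.0221) and TRAP1, the HSP90 of that compartment, rose by 0.56 (edgeR FDR 0.00116). Whether relatives and the 10 genes differed from each other was not tested, and the 10 were chosen on their fall in HG against LG.

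SDF2 was among the relatives called with VPA. It rose by 0.48 in HGV against HG (edgeR FDR 0.00459), and it changed by 0.23 in LGV against LG (edgeR FDR 0.178). HSPA8 fell by 0.66 in LGV against LG (edgeR FDR 0.00447) and by 0.75 in HGV against HG (edgeR FDR 0.000686). HSPH1 rose by 0.69 in LGV against LG (edgeR FDR 0.00599). CANX (-0.07, edgeR FDR 0.728), HSPA13 (-0.09, edgeR FDR 0.656) and CRELD1 (-0.28, edgeR FDR 0.149) had no call in LGV against LG. CANX averaged 1108 CPM in HG and 879 in HGV, HSPA13 52.8 and 53.9, CRELD1 60.3 and 64.9, and HSPH1 101 and 116. In LG and LGV, HSPA9 averaged 1044 and 779 CPM, TRAP1 106 and 77.2, HSP90AA1 834 and 903, and HSP90AB1 3793 and 3127. CDNF averaged 0.44 and 0.61 CPM there.

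The rest of the pathway was read from 9 lists in HGV against LGV, where 19.5% of all genes were called lower and 21.2% higher. Of 14 other genes of the HSPA5 cycle, 6 were lower, 0 higher and 8 not called, with a median of -0.26. Of 16 genes of ER-associated degradation, which draws misfolded proteins out of the ER, 12 were lower and 0 higher, with a median of -0.92. SEL1L, a core part of the ubiquitin ligase complex, fell by 1.49 (SE 0.14, edgeR FDR 3.94e-07) and VIMP, which recruits the extracting ATPase, by 1.46 (SE 0.13, edgeR FDR 4.53e-07). Of 20 disulfide isomerases and oxidases, 9 were lower and 0 higher (median -0.31), and PDIA3, the isomerase that works with CALR and CANX, fell by 1.501 (SE 0.15, edgeR FDR 1.23e-06). PDIA2 fell by 1.85 (SE 0.19, edgeR FDR 1.33e-06). Without HGV replicate 2 or without LGV replicate 1, 1 gene of this list was higher.

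Other lists held genes in both directions. Of 13 genes of the lectin cycle and client-specific chaperones, 5 were lower and 2 higher (median -0.21), and CNPY4 rose by 0.96 (edgeR FDR 5.11e-05). Of 8 prolyl isomerases, 4 were lower and 2 higher (median -0.16), with PPIB at -1.002 (edgeR FDR 3.58e-05) and FKBP2 at -0.75 (edgeR FDR 0.000145). Of 17 sensors, proteases and transcription factors of the unfolded protein response, 6 were lower and 2 higher (median -0.20). The sensors ATF6, with -1.05 (SE 0.12, edgeR FDR 4.00e-06), and EIF2AK3, the gene of PERK, with -1.07 (SE 0.13, edgeR FDR 9.46e-06), were both lower. Of 11 PERK and ATF4 targets, 4 were lower and 4 higher (median 0.13), from TRIB3 at -1.36 (edgeR FDR 1.35e-06) to CHAC1 at 2.13 (edgeR FDR 1.13e-06). The 2 higher genes of the lectin list became 1 when any single library other than LGV replicate 1 was left out. Those of the sensor list were 1 without LGV replicate 2 or LGV replicate 3, and 3 without HGV replicate 1 or LGV replicate 1.

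The cytosolic and mitochondrial counterparts were read in the same way. Of 22 cytosolic genes, 8 were lower and 0 higher (median -0.29), and DNAJC7 fell by 0.94 (edgeR FDR 2.48e-05). That count of 8 lower was 4 without HGV replicate 1, 5 without HGV replicate 3, 3 without LGV replicate 2 (with 1 higher) and 4 without LGV replicate 3. Over all single libraries left out, it ran from 3 to 11. Of 7 mitochondrial genes, 4 were lower and 1 higher (median -0.39), and GRPEL2, an exchange factor of HSPA9, fell by 0.89 (edgeR FDR 2.12e-05). The mitochondrial count of 4 lower was 2 without HGV replicate 1, without LGV replicate 2 or without LGV replicate 3. The medians of these 9 lists ran from -0.92 to 0.13, beside -1.99 for the 10 genes and 0.01 for all genes. The 10 genes were chosen on their fall in HG against LG, so their lower median is no test against the lists. Single listed genes fell as far, such as PDIA2 at -1.85, beside -1.83 for DNAJB9 and -1.80 for SDF2L1.

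**Figure D5:**
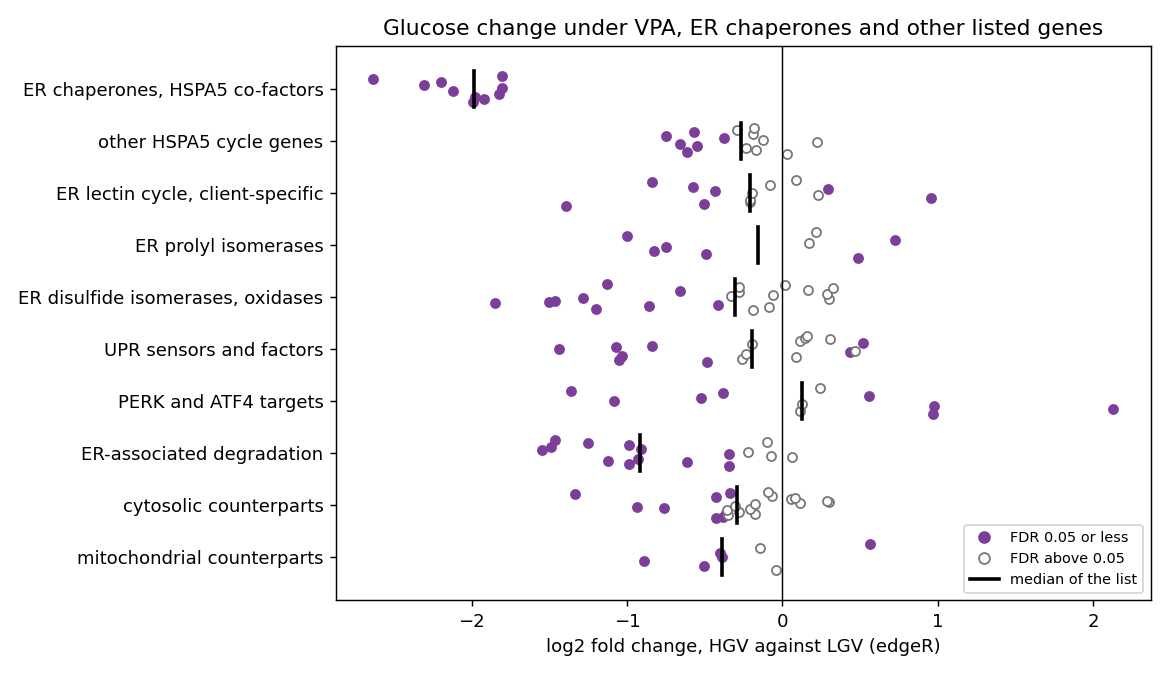
Log2 fold change of HGV against LGV for the 10 genes (top row) and 9 lists of other folding and stress-response genes, 1 point a gene. Filled points passed an FDR of 0.05 or less by edgeR, open points did not, and the bar is the median; the top row lies between -2.63 and -1.80, and the median of ER-associated degradation genes is -0.92.

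The pattern over the 12 libraries was also used to look for genes that followed the mean of the 10. Among 11897 genes compared, the highest Pearson correlations were those of PDIA6 (0.994), HERPUD1 (0.993), MCUR1 (0.990), MTMR4 (0.989) and VIMP (0.989). SLC6A12 (0.984), PTTG1IP (0.983), MCFD2 (0.983), PDIA4 (0.982) and SLC4A2 (0.981) followed. PDIA6 averaged 1331 CPM in LG, 546 in HG, 1325 in LGV and 552 in HGV, and SLC6A12 averaged 20.6, 3.10, 29.4 and 3.89 CPM in the same order. Within the group, each gene's correlation with the mean of the other 9 ran from 0.940 for DNAJB11 to 0.997 for MANF. The libraries share their groups and scaling, so these values describe likeness over 12 points and carry no p. The 12 include the LG and HG libraries that chose the 10 genes, so that choice itself favours high correlations within the group.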

How the data were processed

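RNA-seq counts came from 12 HepG2 libraries made from poly(A) RNA with a strand-keeping kit, 3 in each of LG, HG, LGV and HGV. Trimming used FASTX, alignment to GRCh37 used STAR and counting per gene used featureCounts. The submitters' processing notes also name bcl2fastq 2.17.1.14. The authors deposited raw counts for 16389 genes, without normalization and without genes that averaged fewer than 10 reads (the lowest row mean is 10). The strand setting of the counting is not given in the sources used here.

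Genes with a mean of at least 10 counts in the libraries compared were tested with the quasi-likelihood F test of edgeR 4.0.16 in R 4.3.3, with TMM factors and Benjamini-Hochberg adjustment over all genes tested, two-sided, and a gene was called when its FDR did not exceed 0.05. There were 5 comparisons, for glucose without VPA (HG against LG), glucose with VPA (HGV against LGV), VPA at each glucose level and the interaction over all 12 libraries. The script was tested on simulated data with 2-fold changes. It recovered 79.7% of them in HGV against LGV and 44.9% in the interaction. Of the simulated calls, 5.56% and 10.1% were false in the same order. DESeq2 1.42.0 and other settings served as alternatives. Python 3.11.15 (pandas 2.3.3, numpy 2.4.6, matplotlib 3.10.9) made ratios, motif counts and plots. Intervals are 95% intervals of the fit. Precision is set by the depth of 29798442 to 45572694 counts and by 3 libraries a group.

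The 10 genes and the lists were chosen with earlier results of these data known. All 10 were named, and from each list the 2 genes with the smallest p among those that passed, with close paralogs of the 10 whatever their change. Positions and transcript lengths came from GENCODE on GRCh37 and promoters from RefSeq (GRCh38.p14). No coordinate was converted between builds.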

Additional observations from a re-analysis of the deposited data

How the results depend on the processing

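All 10 genes kept their call and direction in HGV against LGV, and their direction in HG against LG, under every setting tried; no value of the 10 genes that was called changed sign. Library size in place of TMM factors moved the median log2 fold change of all genes to 0.11 in HG against LG, 0.16 in LGV against LG, 0.15 in HGV against HG and 0.10 in HGV against LGV, and upper quartile factors moved it to 0.10 in HG against LG and in HGV against LGV. With library size only, 62.6%, 69.7%, 68.1% and 62.0% of the calls in those 4 comparisons were higher, and with upper quartile factors 64.3%, 61.0%, 62.2% and 63.5%, beside 48.6%, 52.1%, 56.1% and 52.2%. With library size only, 3 of the 10 genes passed in LGV against LG (1 with TMM factors) and 4 in HGV against HG (2 with TMM factors), all of them higher, and 1 gene passed the interaction (7 with TMM factors). In LGV against LG, edgeR's likelihood ratio test and a single fit of the 12 libraries each called 2 of the 10. The interaction was called for 1 of the 10 by the DESeq2 Wald test and by the likelihood ratio test, which also called 162 and 202 genes in all and 1 listed pathway gene each (0 in the quasi-likelihood test). At an FDR of 0.01, 1852 genes in place of 3813 passed in HG against LG, 4263 in place of 6604 in HGV against LGV and 1 in the interaction, and 37 listed pathway genes passed in LGV against LG (56 at 0.05) and 37 in HGV against HG (59 at 0.05). The cause of these differences was not tested, beyond the stricter threshold itself.

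Deviations of same-numbered libraries had mean correlations of -0.06 in HG against LG, 0.01 in LGV against LG, 0.08 in HGV against HG and 0.08 in HGV against LGV. Libraries of different numbers had 0.03, -0.01, -0.04 and -0.04 in the same order. Not every library correlated best with its own number, so the numbers were not taken as a pairing. Whether they pair is not known. With the replicate block, 2 of the 10 passed in LGV against LG, DNAJB11 and CRELD2 (edgeR FDR 0.0454), and 13 genes passed the interaction. Over all genes the block called 3351 in place of 3813 in HG against LG and 6971 in place of 6638 in LGV against LG. It called 8229 in place of 7456 in HGV against HG and 7308 in place of 6604 in HGV against LGV.

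Leaving out 1 library at a time, the count of the 10 genes called stayed at 10 in HGV against LGV, ran from 2 to 3 in HGV against HG (3 without HG replicate 2), from 1 to 4 in LGV against LG (4 without LG replicate 2 and 4 without LG replicate 3) and from 0 to 1 in the interaction. Without LG replicate 2 the 3 added calls in LGV against LG were DNAJC3 (0.38, edgeR FDR 0.0486), SDF2L1 (-0.37, edgeR FDR 0.0462) and CRELD2 (-0.44, edgeR FDR 0.0354). Over all genes the calls ran from 1933 (without LG replicate 1) to 5338 in HG against LG, with 2076 without HG replicate 3, and from 1 to 217 in the interaction, with 217 without LG replicate 2, 67 without LG replicate 3 and 22 without LGV replicate 1. Listed pathway genes called in the interaction ran from 0 to 1. With 3 libraries a group, an exact permutation test of 1 gene cannot go below 0.1, so calls rest on spread shared across genes.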

Other observations

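Outside the 10 genes, 31 promoters in the RefSeq table held the ERSE or ERSE-II letters, and 18 of their genes were tested in HGV against LGV. Of these 18, 9 were lower, 2 were higher and 7 were not called by edgeR's quasi-likelihood test, with a median log2 fold change of -0.32 beside 0.01 over all genes. Over all genes tested, 19.5% were lower and 21.2% higher. The genes named here were chosen after their values were seen. HERPUD1, an ER membrane protein of ER-associated degradation, changed by -1.55 (SE 0.14, edgeR FDR 4.77e-07), and SERP1, which stabilises membrane proteins at the translocon, by -0.65 (SE 0.12, edgeR FDR 0.000338). XBP1, itself a transcription factor of the unfolded protein response, gave 0.16 (SE 0.15, edgeR FDR 0.408). GYS1, the muscle form of glycogen synthase, was higher by 0.80 (SE 0.15, edgeR FDR 0.000377). The counts take XBP1 over all its transcripts, so the spliced and unspliced forms cannot be told apart here. ALG12, which shares exon bases with CRELD2, is among the 9.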
